A study of Mus musculus with 9 samples.

Results

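The ligands of the tumor necrosis factor (TNF) superfamily are trimeric proteins, made at the cell surface and in part shed from it, that bind receptors of the TNF receptor superfamily. Activated CD8 T cells use them to kill target cells, to act on antigen-presenting cells and stromal cells, and to sustain each other through costimulation. Most are little transcribed in resting T cells and are induced by T cell receptor signals, whereas lymphotoxin beta is already transcribed in resting lymphocytes.

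Here, 10 ligand genes (Tnfsf11, Tnf, Lta, Ltb, Fasl, Tnfsf8, Tnfsf9, Tnfsf10, Tnfsf14 and Cd70) were followed among the 24060 genes of the deposited table, chosen by their gene symbol. The list was written with earlier results of these data known, so the counts and p-values of its members are not independent of that choice. All 10 were in the table, and all 10 passed the filter on low values, a maximum above 1 TPM (the level of a gene's transcripts corrected for their length, with a common total for each library), which left 11330 genes for testing. The cells were CD8 T cells from 3 transnuclear mouse lines (R7-I, R7-II and R7-III) on a Rag2-proficient (Rag2+/+), CD90.2+ BALB/c background, whose ages are not given in the sources used here. Such a line is cloned from the nucleus of a single T cell, so that each line stands for 1 T cell receptor and the receptor cannot be told apart from other features of that line. All 3 receptors recognise the ROP7 peptide of Toxoplasma gondii on the class I molecule H-2Ld. Their affinity for it was ranked R7-I > R7-III > R7-II in the series description, and their self-reactivity R7-III > R7-I > R7-II. Overnight, splenocytes of each line received the ROP7 peptide at 10 µM and interleukin-2 at 10 ng/ml, and CD3+ CD8+ ROP7 tetramer-positive cells were sorted to a purity of 90 to 95%. The 9 libraries comprise 3 labelled biological replicates per clone, all peptide-activated. Nothing in the sources used here states whether replicates came from separate mice, so p-values measure the spread between these libraries. A level in bulk RNA is an average over the sorted cells, and fewer expressing cells and less RNA per cell cannot be told apart.

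The sorted cells carried the markers of CD8 T cells. The summed level of Cd3d, Cd3e, Cd3g, Cd8a, Cd8b1 and Cd2 was 1434 ± 22.0 TPM in R7-I, 2156 ± 20.9 in R7-II and 1625 ± 15.7 in R7-III (mean and SD over 3 libraries, as for all values with ± here), and Cd8b1 was the most abundant of them. Of these 6 genes, 5 were higher in R7-II than R7-I and all 6 higher than in R7-III (4 and 4 after median-of-ratios scaling of the libraries). Of the helper T cell genes, Cd4 did not exceed 1.00 TPM and Zbtb7b stayed under it, and with Foxp3 they summed to 0.983 ± 0.327 TPM in R7-I, 2.62 ± 0.396 in R7-II and 1.23 ± 0.0987 in R7-III. None of 5 NK cell genes (Ncr1, Klrb1c, Klri2, Klra4 and Klra8) exceeded 1 TPM, the last pair being listed at 0 throughout. Genes of B cells, of MHC class II and of myeloid cells were also present, and their sums were highest in R7-II. The sum of 10 B cell genes was 12.1 ± 3.73 TPM in R7-I, 55.8 ± 19.5 in R7-II and 6.99 ± 1.58 in R7-III. The sum of 8 MHC class II genes was 39.6 ± 9.97, 166 ± 42.2 and 26.9 ± 2.02 TPM in the same order, and that of 14 myeloid genes 6.67 ± 0.510, 55.1 ± 32.4 and 7.87 ± 1.10 TPM. Cd74, the most abundant MHC class II gene, was at 86.95, 55.42 and 91.26 TPM in the R7-II libraries, and Lyz2, the most abundant myeloid gene, at 28.2, 13.8 and 56.7 TPM, while the myeloid genes Itgax, Fcgr3 and Flt3 did not exceed 1 TPM. All 8 MHC class II genes were higher in R7-II in each of its comparisons (6 and 7 after quantile normalization), as were 7 and 8 of the 11 myeloid genes tested (2 and 5). Of all genes, 40.6% were higher than in R7-I and 35.6% higher than in R7-III. The part of these cells in the differences of the ligands, and of the receptor, adaptor and processing genes below, was not tested.

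Activated R7-II cells had lower levels of 5 of the 10 ligands than both other clones and a much higher level of Ltb. Between R7-II and R7-I, 7 ligands were lower and 1 was higher, so that 8 of 10 passed an adjusted p of 0.01 (limma on log2(TPM + 1), Benjamini-Hochberg adjustment over all genes tested). Of all genes tested in this comparison 56.1% passed, 15.5% being lower and 40.6% higher in R7-II. Between R7-II and R7-III, 6 ligands were lower and 1 was higher, against 53.6% of all genes, of which 18.0% were lower and 35.6% higher. Tnfsf11, Fasl, Cd70, Tnfsf14 and Tnfsf8 were lower in both comparisons, as were 12.8% of all genes. Ltb was higher in both, as were 31.9% of all genes. These comparisons share the R7-II libraries. Between R7-III and R7-I, 1 ligand, Tnf, was lower and 0 were higher, against 8.41% of all genes called (1.45% lower, 6.96% higher). There 7 ligands had an unadjusted p under 0.05 (limma). No share of all genes is given here at that cut, so no excess is read from this count. The median log2 fold change of the 10 ligands was -0.49 for R7-II relative to R7-I, -0.45 relative to R7-III and, for R7-III relative to R7-I, -0.07, beside medians of 0.17, 0.12 and 0.04 over all genes tested. Median-of-ratios scaling of the libraries removed this offset, and the share of called genes that were higher went from 72.4 to 46.2% for R7-II against R7-I, from 66.4 to 47.0% against R7-III and from 82.8 to 56.6% for R7-III against R7-I. Under this scaling 7 ligands were lower in R7-II than R7-I and 8 lower than in R7-III, with Ltb higher in each case. No ligand changed its direction between R7-II and another clone under either other scaling.

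By size, Ltb was more than 2-fold higher in R7-II in each comparison, like 5.98 and 4.77% of all genes, and Tnfsf11, Fasl and Cd70 were more than 2-fold lower, like 1.27 and 2.81%. By range, the R7-II libraries lay wholly above or below the R7-I libraries for 8 ligands (1 above, 7 below), beside 71.2% of all genes (50.6% above, 20.6% below). Relative to R7-III this held for 8 ligands as well (1 above, 7 below), beside 70.6% (46.4 and 24.3%). R7-III lay apart from R7-I for 4 ligands (1 above, 3 below), beside 41.9% (29.5 and 12.4%).

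**Figure D1:**
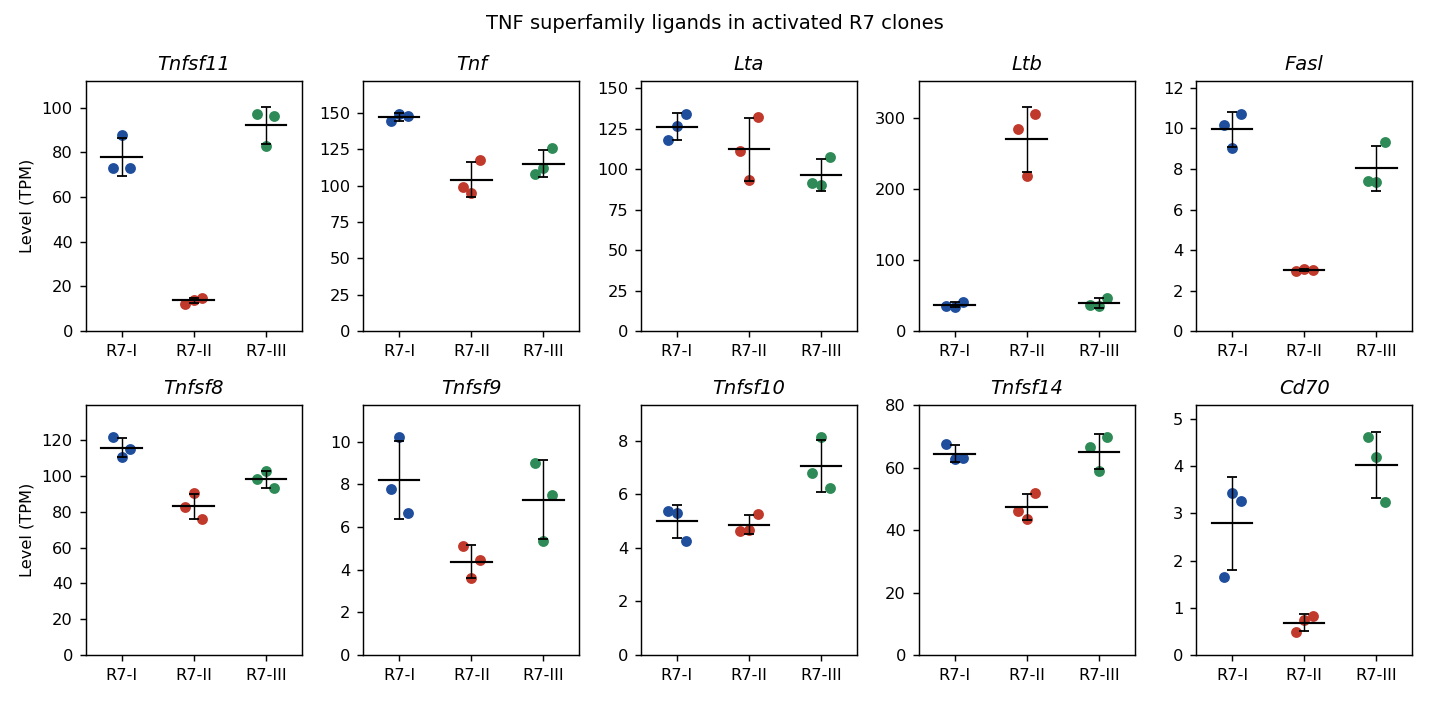
Level of each ligand in TPM (vertical axes, each starting at 0 with its own range) in the 3 libraries of each clone; points are libraries, horizontal bars means and whiskers SD. The R7-II libraries lie above all others for Ltb and below all others for Tnfsf11, Fasl, Tnfsf8, Tnfsf9, Tnfsf14 and Cd70.

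**Figure D2:**
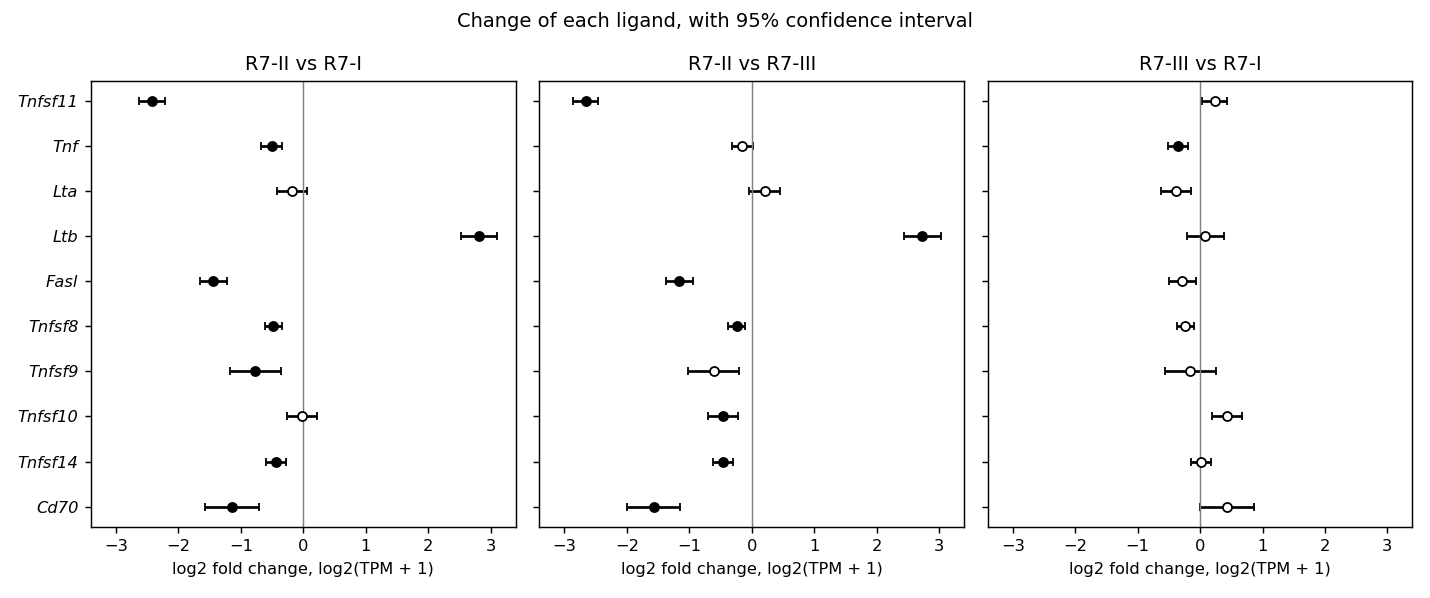
Log2 fold change of each ligand on the log2(TPM + 1) scale (horizontal axes) in the 3 comparisons, with 95% confidence intervals from limma. Filled points passed the adjusted p of 0.01, and Ltb (2.81 and 2.73) and Tnfsf11 (-2.42 and -2.66) lie farthest from 0 in both comparisons of R7-II.

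Levels spanned a wide range. Averaged over the 9 libraries, Tnf was the most abundant ligand at 122 TPM, with Ltb at 116 TPM, Lta at 112 TPM and Tnfsf8 at 99.0 TPM. The mean of Ltb hides its clones, since it was the most abundant ligand in R7-II (270 TPM) and below Tnf, Lta, Tnfsf8, Tnfsf11 and Tnfsf14 in R7-I and R7-III. Tnfsf11 and Tnfsf14 were at 61.3 and 59.0 TPM. These 6 genes lay between percentiles 74.6 and 87.7 of the genes tested. Fasl (7.01 TPM), Tnfsf9 (6.62 TPM), Tnfsf10 (5.63 TPM) and Cd70 (2.497 TPM) lay between percentiles 14.8 and 26.6.

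Tnf, Lta and Ltb form 1 locus within the MHC region of chromosome 17, spanning 11.1 kb of mm10 (chr17:35194507-35205578). Tnf encodes TNF itself, which is made as a membrane protein and shed. Lta encodes lymphotoxin alpha, which is secreted as a homotrimer that binds the TNF receptors. Ltb encodes lymphotoxin beta, which holds lymphotoxin alpha at the cell surface in a heterotrimer that binds the lymphotoxin beta receptor. Ltb lies on the forward strand from 35194507 to 35196305. Tnf (35199367 to 35202007) and Lta (35203165 to 35205578) lie on the reverse strand. For each gene, 250 bases before a start site are shown because these neighbours had unlike levels across the clones. They were taken from RefSeq promoters on GRCm38.p6, the same primary assembly as mm10, in which 8 of the 10 ligands had an entry, and all gene positions from RefSeq genes on that build. They are written 5′ to 3′ in the direction of transcription, from chr17:35194257-35194506 (forward strand), chr17:35202008-35202257 and chr17:35205352-35205601 (reverse strand), with motif matches in capitals. The stretches of Ltb and Tnf adjoin the gene spans given above, whereas the start site used for Lta lies within its span, so that most of the Lta stretch, its motif match included, lies inside the gene as annotated.
Ltb: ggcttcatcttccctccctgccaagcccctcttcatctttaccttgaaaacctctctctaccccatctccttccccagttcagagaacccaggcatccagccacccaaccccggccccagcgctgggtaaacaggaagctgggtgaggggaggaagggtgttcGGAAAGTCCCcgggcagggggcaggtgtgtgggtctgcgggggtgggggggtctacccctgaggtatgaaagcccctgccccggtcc
Tnf: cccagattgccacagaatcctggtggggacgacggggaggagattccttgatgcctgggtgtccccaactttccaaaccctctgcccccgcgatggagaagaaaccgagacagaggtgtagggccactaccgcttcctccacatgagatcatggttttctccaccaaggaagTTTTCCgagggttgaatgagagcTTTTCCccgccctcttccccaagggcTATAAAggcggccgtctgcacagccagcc
Lta: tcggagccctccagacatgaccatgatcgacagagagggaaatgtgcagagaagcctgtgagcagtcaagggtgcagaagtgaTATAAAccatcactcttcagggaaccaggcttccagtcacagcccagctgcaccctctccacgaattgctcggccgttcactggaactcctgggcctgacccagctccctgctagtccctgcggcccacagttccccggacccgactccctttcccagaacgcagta
Both strands were searched for 7 motifs. The NF-kappa-B motif was named only, its 10 letters allowing 3 free bases in the middle. The NFAT core was GGAAAA, whose letters can lie within an NF-kappa-B match, which did not occur here. The AP-1 motif was TGANTCA and the motif of Egr factors GCGNGGGCG. Runx factors were searched as TGTGGT. T-box factors were searched as GGTGTGA, and the TATA box as TATAAA. The Ltb stretch held 1 NF-kappa-B match, at -87 to -78 from the start site, which 4.65% of all 32851 promoters of this length hold. The Tnf stretch held NFAT core matches at -78 to -73 and at -55 to -50 (20.4% of promoters hold any) and a TATA box at -29 to -24 (12.4%). The Lta stretch held TATAAA at -167 to -162 from the start site used in that table. A match describes letters only, and no binding was measured.

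Ltb was at 35.9, 34.4 and 41.6 TPM in the R7-I libraries, at 285, 219 and 306 in R7-II and at 36.4, 35.6 and 47.2 in R7-III. Every R7-II library was thus above every other library, whereas R7-I and R7-III overlapped. The mean of R7-II was 7.25-fold that of R7-I and 6.80-fold that of R7-III. On the log2 scale Ltb rose by 2.81 over R7-I and by 2.73 over R7-III, each with a standard error of 0.133 (adjusted p = 7.94e-08 and 1.14e-07 from limma). Ltb is also transcribed in B cells. In R7-II replicates 1, 2 and 3 the sum of the 10 B cell genes was 74.69, 35.69 and 57.03 TPM, and the level of Cd79b, the most abundant, was 25.4, 13.7 and 17.1 TPM. In both comparisons all 8 that passed the filter were higher in R7-II, and Ebf1 and Cr2 did not exceed 1 TPM. Against R7-I, 7 were higher after median-of-ratios scaling and 6 after quantile normalization, and against R7-III 8 after either. The part of the B cell genes in the Ltb difference was not tested. With each R7-II library left out in turn, the log2 fold change of Ltb lay between 2.63 and 2.96, and every R7-II library had a higher sum of B cell genes than any library of the other clones.

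Tnf was at 144, 149 and 148 TPM in R7-I, at 99.1, 95.0 and 118 in R7-II and at 108, 112 and 125 in R7-III. All R7-I libraries were above all others, and R7-II and R7-III overlapped. Tnf fell by 0.50 on the log2 scale in R7-II against R7-I (standard error 0.0753, adjusted p = 1.58e-04 from limma). The log2 fold change of R7-III against R7-I was -0.35 (adjusted p = 0.00917 from limma, the same standard error). Leaving out 1 library ended that call in 6 of 9 cases, with an adjusted p of up to 0.0414 (without R7-III replicate 2), and the lowest over all alternatives was 0.00169. It was also lost without the filter on low values (0.0252), with quantile normalization (0.0138) and without the trend (0.0280). R7-II and R7-III differed by a log2 fold change of -0.15 (95% confidence interval -0.32 to 0.02, adjusted p = 0.102). It passed with libraries scaled by median of ratios (adjusted p = 0.00625) and without R7-II replicate 3 (adjusted p = 0.00498).

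Lta was at 118, 127 and 134 TPM in R7-I, at 111, 93.5 and 132 in R7-II and at 91.7, 90.1 and 108 in R7-III. The R7-II libraries overlapped those of both other clones, and all R7-III libraries were below those of R7-I. No comparison of Lta passed the threshold. In log2 units R7-II differed from R7-I by -0.18 (95% confidence interval -0.42 to 0.06) and from R7-III by 0.21 (-0.04 to 0.45), and R7-III differed from R7-I by -0.39 (-0.63 to -0.14, adjusted p = 0.0332 from limma). This last difference passed with only the clones compared (adjusted p = 0.0095).

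The proportion of both lymphotoxin transcripts differed between clones. Per library, there were 0.295 ± 0.0209 Ltb transcripts for each Lta transcript in R7-I, 0.410 ± 0.0246 in R7-III and 2.41 ± 0.135 in R7-II, on the TPM scale. The 3 ranges did not overlap. In the direction away from Tnf, Lst1, a gene of leukocytes that is abundant in myeloid cells, was at 0.417 ± 0.166 TPM in R7-I, 3.79 ± 2.23 in R7-II and 0.880 ± 0.156 in R7-III, and was higher in R7-II in both comparisons (adjusted p = 3.19e-04 and 0.00222 from limma). Aif1, beyond it, did not pass the filter. Nfkbil1, on the other side of Lta, was at 19.4 ± 1.23, 21.6 ± 0.957 and 23.0 ± 1.42 TPM in R7-I, R7-II and R7-III, and did not pass in any comparison, except between R7-II and R7-III after quantile normalization (-0.26, adjusted p = 0.00678, limma). The microRNA genes Mir6973a within Ltb and Mir6974 within Lta were listed at 0 in every library.

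**Figure D3:**
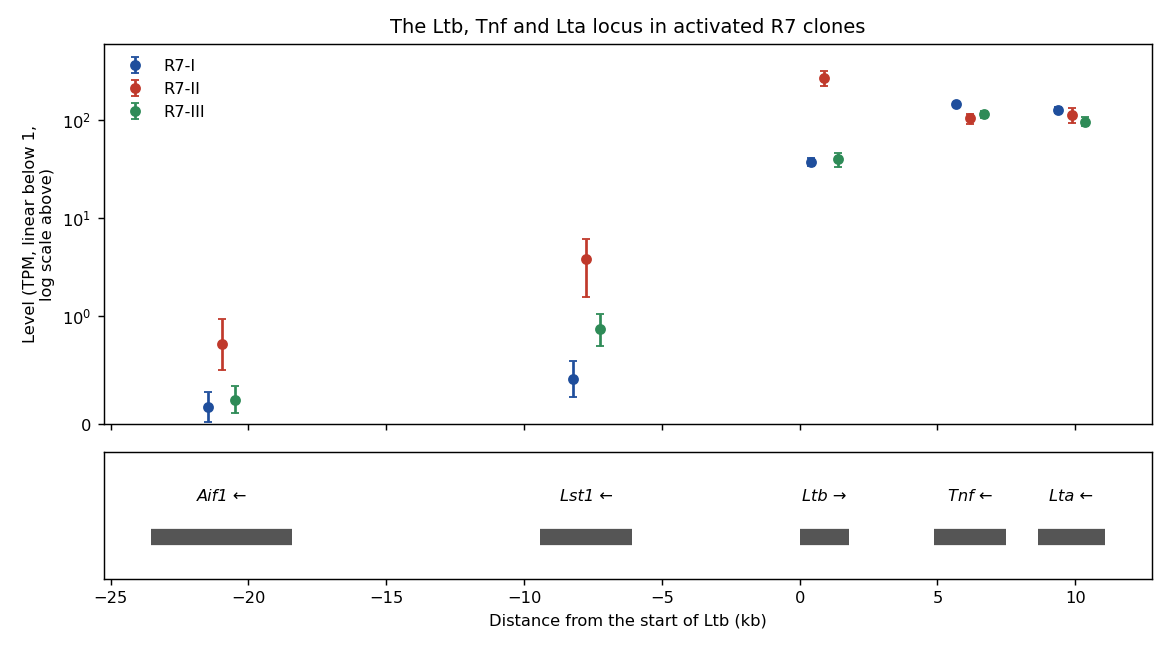
Mean level (vertical axis, TPM, linear below 1 and logarithmic above) ± SD of genes at the Ltb, Tnf and Lta locus in the 3 clones, over their distance from the start of Ltb (horizontal axis, kb); bars below are genes and arrows their direction of transcription, and points of 1 gene are set apart sideways. Ltb stands at 270 TPM in R7-II and below 40 TPM in the other clones, while Tnf and Lta stay between 96.5 and 147 TPM in all clones.

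Tnfsf11 encodes RANKL, the ligand of RANK, which is required for osteoclast formation and lymph node development and is made by activated T cells. It lies on the reverse strand of chromosome 14 from 78277446 to 78308043. It was at 73.1, 87.9 and 73.1 TPM in R7-I, at 12.3, 14.2 and 14.8 in R7-II and at 97.3, 82.7 and 96.1 in R7-III. The R7-II libraries were all below the others, with the mean of R7-I 5.68-fold and that of R7-III 6.70-fold the mean of R7-II. Tnfsf11 fell by 2.42 and 2.66 on the log2 scale, each with a standard error of 0.0907 (adjusted p = 2.29e-08 and 3.17e-08 from limma). R7-III and R7-I overlapped, with a log2 fold change of 0.24 (95% confidence interval 0.04 to 0.44, adjusted p = 0.0969). Tnfsf11 was chosen with its low level in R7-II already known from these samples, so the difference is not independent evidence. Its promoter stretch (chr14:78308044-78308293, reverse strand, 250 bases before the start site) is shown because this ligand was lowered most.
Tnfsf11: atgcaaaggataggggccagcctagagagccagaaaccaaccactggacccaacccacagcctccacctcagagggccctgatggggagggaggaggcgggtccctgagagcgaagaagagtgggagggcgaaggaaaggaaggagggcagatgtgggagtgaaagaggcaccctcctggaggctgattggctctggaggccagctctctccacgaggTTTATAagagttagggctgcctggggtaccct
Of the 7 motifs it held only TATA box letters, at -32 to -27. Among the other ligands with an entry, the Fasl stretch held an NFAT core match (-227 to -222), that of Tnfsf14 an AP-1 match (-160 to -154, in 6.75% of promoters), and those of Tnfsf8 (whose start site in the table also lies within the gene span) and Tnfsf10 held no match. The 5 genes whose levels followed Tnfsf11 most closely over the 9 libraries were Gart, Tex30, Cse1l, Polr2f and Rcc1 (Pearson r of log2(TPM + 1) between 0.996 and 0.997), and 488 genes, 4.31% of those tested, reached 0.95. Libraries of a clone share their receptor and line, so the 9 points are not independent. The size of the change is not part of r. Gart, a purine synthesis enzyme, fell by 0.31 on the log2 scale in R7-II against R7-I (adjusted p = 3.16e-06 from limma).

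Among the death ligands, Fasl was lower in R7-II and Tnfsf10 varied less. Fasl, on the reverse strand of chromosome 1 (161780691 to 161788495), encodes Fas ligand, which kills cells that carry Fas. It was at 10.2, 9.02 and 10.7 TPM in R7-I, at 2.97, 3.06 and 3.04 in R7-II and at 7.42, 7.36 and 9.33 in R7-III. The R7-II libraries were all below the others and lay close together. The mean of R7-I was 3.30-fold and that of R7-III 2.66-fold the mean of R7-II. On the log2 scale this was -1.44 and -1.16 (standard error 0.0968, adjusted p = 6.31e-07 and 2.66e-06 from limma). With a pseudocount of 5 in place of 1 these were -0.90 and -0.70, since a larger pseudocount shrinks the fold of a low gene. R7-III against R7-I gave -0.28 (95% confidence interval -0.50 to -0.07, adjusted p = 0.0669), with 1 R7-III library inside the range of R7-I.

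Tnfsf10, on the forward strand of chromosome 3 (27317077 to 27339665), encodes TRAIL, which binds death receptors and decoy receptors. It was at 5.37, 5.31 and 4.26 TPM in R7-I, at 4.64, 4.66 and 5.27 in R7-II and at 6.79, 8.12 and 6.24 in R7-III, so that all R7-III libraries were above all others. R7-II differed in log2 units by -0.45 from R7-III (standard error 0.109, adjusted p = 0.00379 from limma) and by -0.03 from R7-I (95% confidence interval -0.27 to 0.22). The call against R7-III was lost without R7-II replicate 1 or 2 (adjusted p = 0.014 and 0.013) or R7-III replicate 1 or 2 (0.0105 and 0.0191), and without the filter on low values (0.0110). R7-III against R7-I gave 0.43 and did not pass (adjusted p = 0.0212, limma).

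The remaining ligands are costimulatory. Tnfsf14 (LIGHT), Tnfsf9 (the 4-1BB ligand) and Cd70 (the ligand of CD27) lie within 88.9 kb of chromosome 17, at 57189474 to 57194181 (reverse strand), 57105287 to 57107758 (forward) and 57145997 to 57149777 (reverse). Tnfsf8 (the CD30 ligand) lies on the reverse strand of chromosome 4 (63831202 to 63861508). Tnfsf8 was at 122, 111 and 115 TPM in R7-I, at 82.4, 90.4 and 76.3 in R7-II and at 98.1, 103 and 93.2 in R7-III. Its 3 clones did not overlap, in the order R7-I, R7-III, R7-II. Relative to R7-I, Tnfsf8 fell by 0.48 on the log2 scale in R7-II, and relative to R7-III by 0.24 (standard error 0.0617, adjusted p = 5.63e-05 and 0.00548 from limma), and R7-III against R7-I gave -0.24 (adjusted p = 0.0230, not passing). The call against R7-III was lost without R7-II replicate 1 or 3 (adjusted p = 0.017 and 0.021) or R7-III replicate 1 or 2 (0.0178 and 0.0278). It was also lost without the filter on low values (0.0130), without the trend (0.0155) and with only the clones compared (0.0136).

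Tnfsf14 was at 67.6, 62.9 and 63.2 TPM in R7-I, at 46.3, 43.7 and 51.9 in R7-II and at 66.6, 59.0 and 69.8 in R7-III. R7-II was below both other clones, which overlapped. Tnfsf14 fell by 0.44 relative to R7-I and by 0.45 relative to R7-III on the log2 scale (standard error 0.0722, adjusted p = 2.86e-04 and 2.67e-04 from limma). Between R7-III and R7-I the difference was 0.01 (95% confidence interval -0.15 to 0.17), and its sign changed under both other scalings.

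Cd70 was the least abundant ligand, at 1.66, 3.44 and 3.26 TPM in R7-I, 0.480, 0.740 and 0.830 in R7-II and 4.61, 4.20 and 3.25 in R7-III. All R7-II libraries were below the others, and R7-I and R7-III overlapped. The mean of R7-I was 4.08-fold and that of R7-III 5.88-fold the mean of R7-II. On the log2(TPM + 1) scale, which understates the change of so low a gene, the change was -1.14 and -1.57 (standard error 0.194; limma, adjusted p = 3.90e-04 and 4.31e-05). It was -1.84 and -2.41 with a pseudocount of 0.1 and -0.45 and -0.66 with a pseudocount of 5.

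Tnfsf9 was at 7.76, 10.2 and 6.64 TPM in R7-I, at 5.11, 3.59 and 4.43 in R7-II and at 9.02, 5.33 and 7.50 in R7-III, with all R7-II libraries below the others. In log2 units the difference of R7-II was -0.77 to R7-I (standard error 0.183, adjusted p = 0.00355 from limma) and -0.61 to R7-III (adjusted p = 0.0132, not passing). The former was lost on leaving out R7-I replicate 1 (adjusted p = 0.011) or 2 (0.017) or R7-II replicate 2 (0.016), or without the filter on low values (0.0116), and the latter passed without R7-III replicate 2 (adjusted p = 0.0036) and under both other scalings (0.0062 and 0.0030). The span of Tnfsf9 overlaps that of Gm11110 on the opposite strand, and the reads carried no strand, so reads of these genes cannot be told apart where they overlap. Gm11110 was at 3.80 ± 0.279, 5.75 ± 0.181 and 5.01 ± 0.589 TPM in R7-I, R7-II and R7-III, and was higher in R7-II than R7-I (adjusted p = 6.21e-04 from limma, or 0.221 after quantile normalization). Other genes within 25 kb of these ligands were Tubb4a beside Tnfsf9 and C3 beside Tnfsf14, with means of at most 2.06 and 1.22 TPM. Tubb4a was higher in R7-II than R7-I (adjusted p = 0.00615, or 0.0223 and 0.165 after the other scalings), Mir6978 was listed at 0, and C3 did not pass in any comparison (limma).

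Set together, the composition of the ligand transcripts in R7-II was unlike that of the other clones, while their sum differed less. The 10 ligands summed to 595 ± 8.43 TPM in R7-I, 643 ± 72.7 in R7-II and 533 ± 29.8 in R7-III, with overlapping ranges of R7-I and R7-II and with all R7-III libraries below both. Ltb made up 41.8% ± 2.84 of the sum in R7-II, 6.26% ± 0.614 in R7-I and 7.43% ± 0.799 in R7-III. Tnfsf11 made up 2.15% ± 0.308, 13.1% ± 1.35 and 17.3% ± 1.13 in the same order. Without Ltb, the other ligands summed to 558 ± 8.07 TPM in R7-I, 373 ± 29.7 in R7-II and 493 ± 23.5 in R7-III, and no clones overlapped.

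**Figure D4:**
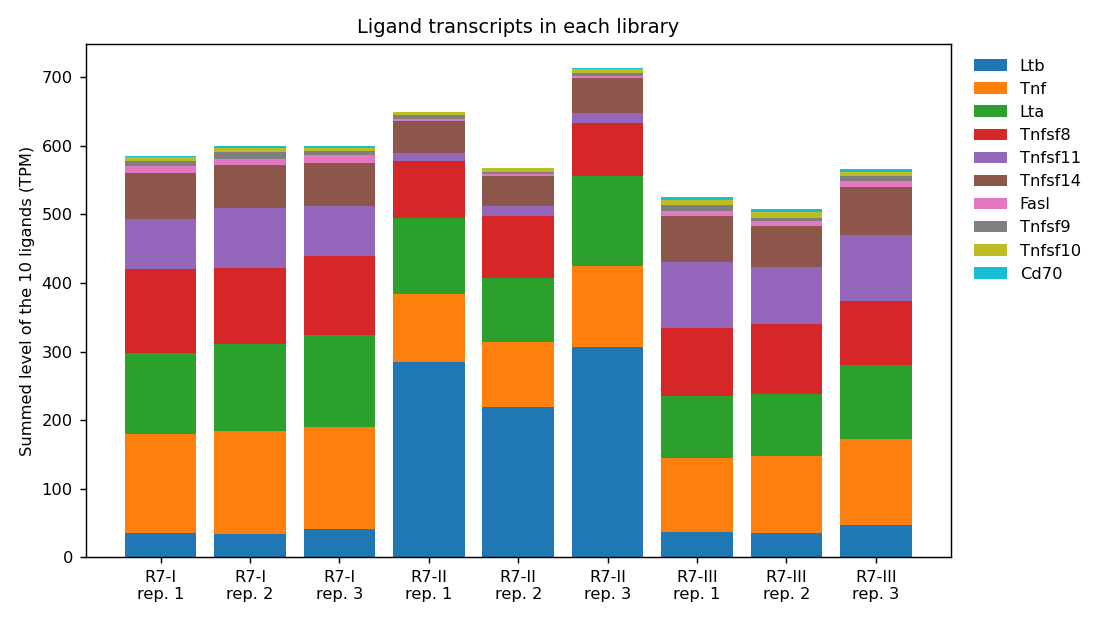
Level of each ligand stacked to the sum of the 10 (vertical axis, TPM, from 0) in each of the 9 libraries (horizontal axis). In the R7-II libraries the Ltb segment (219 to 306 TPM) is the largest and the Tnfsf11 segment is thin (12.3 to 14.8 TPM).

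The order of the clone means was compared with the described rankings. The paper also measured affinity at the cell membrane, where R7-I and R7-III were similar and R7-II was lower. Tnf, Fasl, Tnfsf8 and Tnfsf9 followed the affinity order R7-I > R7-III > R7-II, which 11.3% of all genes tested did. Tnfsf11, Tnfsf10, Tnfsf14 and Cd70 followed the self-reactivity order R7-III > R7-I > R7-II, which 17.3% of all genes did. Tnfsf14 had the affinity order instead after median-of-ratios scaling or quantile normalization. Some orders also changed with 1 library left out. Between R7-II and R7-I the sign changed for Tnfsf10 without R7-I replicate 1 or 2. Between R7-III and R7-I it changed for Tnfsf9 without R7-III replicate 2 and for Ltb without R7-III replicate 3. For Tnfsf14 it changed there without R7-I replicate 2 or 3 or R7-III replicate 1 or 3. Lta had the order R7-I > R7-II > R7-III and Ltb R7-II > R7-III > R7-I. For no ligand did both neighbouring steps of its order pass the threshold. The libraries of the 3 clones did not overlap for Tnfsf8, and Tnf passed in all 3 comparisons after median-of-ratios scaling or without R7-II replicate 3.

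Of 8 other ligands of the superfamily, Tnfsf12, Tnfsf13, Tnfsf13b, Tnfsf15, Tnfsf18 and Eda did not exceed 1 TPM in any library. Tnfsf4, the OX40 ligand, was at 7.997 ± 1.96 TPM in R7-I, 14.7 ± 2.54 in R7-II and 10.2 ± 1.19 in R7-III, and was higher in R7-II than R7-I (log2 fold change 0.81, adjusted p = 0.00133 from limma, or 0.024 after quantile normalization). Cd40lg, the CD40 ligand typical of helper T cells, was at 2.65 ± 0.110, 2.18 ± 0.814 and 5.41 ± 1.30 TPM, and was lower in R7-II than R7-III (log2 fold change -1.03, adjusted p = 7.61e-04 from limma).

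Most receptor transcripts tested were higher in R7-II. So were the sums of B cell, MHC class II and myeloid genes, and the part of such cells in the receptor differences was not tested. Of 14 genes, 13 receptors of these ligands and Btla, which binds the receptor HVEM and none of the 10 ligands, 10 passed the filter. In R7-II, 8 were higher and 2 lower than in R7-I, and 7 were higher and 1 lower than in R7-III. These were 100% and 80% of the genes tested, beside the 56.1% and 53.6% of all genes. Btla was 1 of the lower genes in each comparison. For R7-III against R7-I 0 passed, beside 8.41% of all genes. There 3 had an unadjusted p under 0.05 (limma), a cut at which no share of all genes is given here. The median log2 fold change of the 10 genes was 0.61 and 0.55 in the comparisons of R7-II, beside 0.17 and 0.12 over all genes. The split was the same after median-of-ratios scaling. Tnfrsf14 (HVEM), the receptor of LIGHT, was at 30.3 ± 3.41 TPM in R7-I, 103 ± 9.29 in R7-II and 32.3 ± 6.40 in R7-III, with a log2 fold change in R7-II of 1.74 and 1.66 (adjusted p = 9.16e-07 and 1.24e-06 from limma). Fas was at 43.8 ± 5.53, 71.8 ± 6.44 and 39.8 ± 1.95 TPM. Cd27, the receptor of CD70, was at 296 ± 7.32, 419 ± 20.2 and 295 ± 5.08 TPM. The TNF receptor genes Tnfrsf1a (16.7 ± 1.69, 26.8 ± 2.60 and 17.3 ± 1.16 TPM) and Tnfrsf1b (61.3 ± 4.59, 92.9 ± 2.84 and 69.9 ± 1.33 TPM) passed as higher in R7-II in both comparisons, like Fas and Cd27. So did the TRAIL decoy receptor genes Tnfrsf22 and Tnfrsf23 (log2 fold changes between 0.62 and 0.81), paralogs of similar sequence between which reads may be split. Tnfrsf10b, the TRAIL death receptor, passed relative to R7-I (log2 fold change 0.50, adjusted p = 2.93e-04, or 0.021 after quantile normalization) and not relative to R7-III (0.27, adjusted p = 0.0136, or 0.00151 without R7-I replicate 3).

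Tnfrsf9 (4-1BB), the most abundant receptor in R7-I and R7-III and second to Cd27 in R7-II, was at 507 ± 10.7 TPM in R7-I, 345 ± 46.9 in R7-II and 378 ± 49.1 in R7-III. It fell by 0.56 on the log2 scale in R7-II against R7-I (adjusted p = 4.19e-04 from limma), and the change against R7-III was -0.13 (95% confidence interval -0.35 to 0.08). Btla was at 62.8 ± 4.29, 48.2 ± 0.595 and 68.3 ± 6.80 TPM, lower in R7-II in both comparisons (adjusted p = 6.69e-04 and 1.12e-04 from limma). The receptors of membrane lymphotoxin, RANKL and CD30 ligand did not pass the filter. Ltbr, which binds membrane lymphotoxin, did not exceed 0.570 TPM, Tnfrsf11a (RANK) 0.250 TPM and Tnfrsf8 (CD30) 0.580 TPM in any library, and Tnfrsf11b, the decoy receptor of RANKL, was listed at 0 in all.

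**Figure D5:**
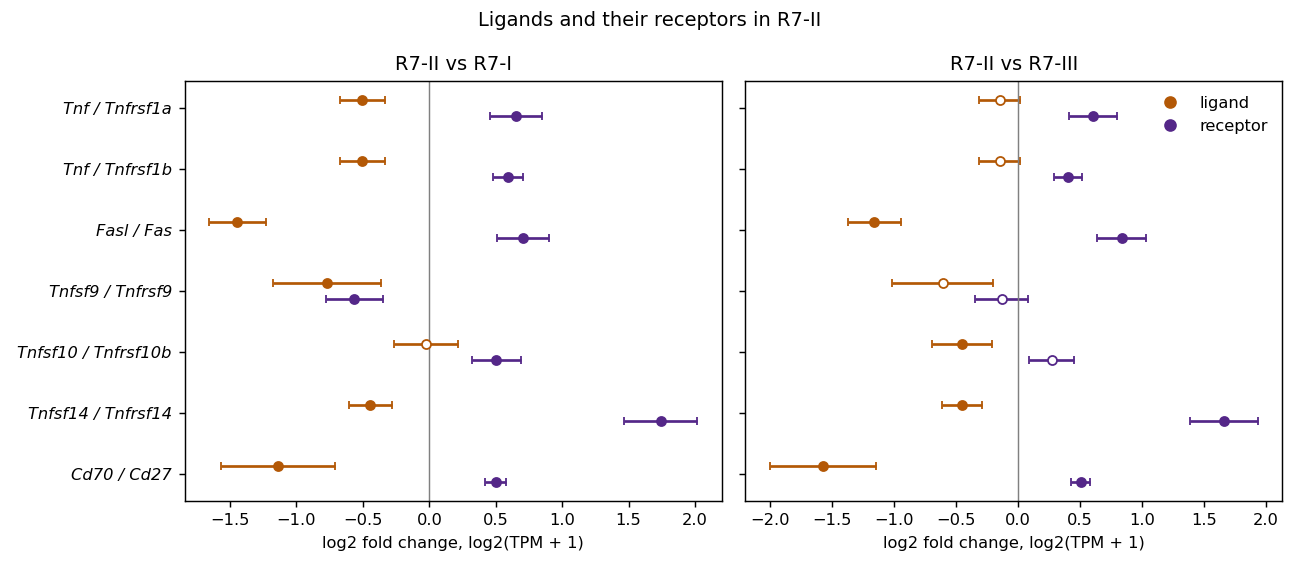
Log2 fold change on the log2(TPM + 1) scale (horizontal axes) of 7 ligand and receptor pairs in R7-II against R7-I (left) and R7-III (right), with 95% confidence intervals; filled points passed the adjusted p of 0.01. Except for Tnfrsf9, the receptors of these pairs have positive values and the ligands negative ones, while Lta and Ltb, not shown, had values of -0.18 and 2.81 against R7-I and 0.21 and 2.73 against R7-III.

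Below the receptors, 24 adaptor, kinase, ligase and caspase genes were tested. In R7-II, 14 were higher and 1 was lower than in R7-I, and 13 were higher and 1 was lower than in R7-III, shares of 62.5% and 58.3% beside the 56.1% and 53.6% of all genes. Between R7-III and R7-I, 3 were higher, 12.5% beside 8.41%. After median-of-ratios scaling, 7 adaptors were higher and 5 lower than in R7-I, and 8 higher and 2 lower than in R7-III, while between R7-III and R7-I 1 was higher and 1 lower. The gene lower without this scaling was Mlkl, the executor of necroptosis, at 4.74 ± 0.934 TPM in R7-I, 1.02 ± 0.556 in R7-II and 9.68 ± 0.864 in R7-III (log2 fold change in R7-II -1.54 and -2.44, adjusted p = 4.77e-05 and 1.85e-06 from limma), and it was higher in R7-III than in R7-I (adjusted p = 0.00947, or 0.0138 after median-of-ratios scaling). Ripk3, the kinase that activates it, was at 19.8 ± 0.387, 37.6 ± 1.41 and 21.1 ± 2.04 TPM, higher in R7-II by 0.89 and 0.80 (adjusted p = 1.03e-06 and 1.99e-06). Of the 3 most abundant genes, Rbck1, of the linear ubiquitin ligase, was higher than in R7-I both in R7-II (log2 fold change 0.16, adjusted p = 0.00104) and in R7-III (0.19, adjusted p = 0.00226). With median-of-ratios scaling these were -0.03 and 0.14 and no longer passed, while Rbck1 became lower in R7-II than R7-III (-0.17, adjusted p = 0.00439, limma). Traf1 and Cflar, both known targets of NF-kappa-B, passed in no comparison and had means between 146 and 158 TPM and between 81.7 and 89.9 TPM. That scaling made both lower in R7-II than R7-I (-0.23 and -0.20, adjusted p = 0.00168 and 0.00129, limma).

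Of 17 genes of ligand processing (proteases and their partners) and of mRNA binding and decay, 16 were tested. In R7-II, 8 were higher and 2 lower than in R7-I, and 9 were higher and 1 lower than in R7-III, 62.5% in both, beside the 56.1% and 53.6% of all genes. After median-of-ratios scaling these were 6 and 3, and 7 and 2. None passed between R7-III and R7-I, where 8.41% of all genes did, against 2 lower in R7-III with that scaling. Without that scaling, 5 had an unadjusted p under 0.05 there (limma), a cut at which no share of all genes is given here. The 3 most abundant were the members of the Zfp36 family, whose proteins bind AU-rich elements and promote mRNA decay, with Tnf mRNA the best known target of tristetraprolin (Zfp36). Zfp36 was at 65.3 ± 1.77 TPM in R7-I, 100.1 ± 7.71 in R7-II and 63.6 ± 0.847 in R7-III, Zfp36l1 at 166 ± 7.07, 231 ± 8.11 and 172 ± 7.13 TPM, and Zfp36l2 at 79.4 ± 7.57, 117 ± 9.39 and 76.1 ± 2.91 TPM. Their log2 fold changes in R7-II lay between 0.42 and 0.64, all passing (adjusted p of at most 6.41e-05, limma), also after either other scaling. Zc3h12d, of a family of mRNA-degrading proteins, changed most on the log2(TPM + 1) scale, at 28.5 ± 2.79, 67.2 ± 1.97 and 26.1 ± 0.531 TPM. Its mean in R7-II was 2.36-fold that in R7-I and 2.58-fold that in R7-III. Rhbdf1, a homologue of the factor that escorts the TNF-shedding protease, was lower in R7-II (2.46 ± 0.496, 0.977 ± 0.211 and 2.40 ± 0.389 TPM, adjusted p = 4.77e-04 and 6.20e-04 from limma). The mean of Rhbdf1 in R7-I was 2.52-fold and that in R7-III 2.45-fold its mean in R7-II. Its more abundant relative Rhbdf2, named after its values were seen, was higher in R7-II (7.82 ± 0.949, 12.1 ± 0.579 and 7.62 ± 0.441 TPM, adjusted p = 1.31e-04 and 9.97e-05 from limma).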

How the data were processed

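RNA of 9 libraries of peptide-activated, sorted CD8 T cells was analysed. Per the labels and the study's methods, the authors estimated gene levels with RSEM 1.2.11 on mm10 RefSeq genes from 100-bp single-end reads without strand, and deposited TPM values per gene symbol. Not given in the sources used here is the aligner. TPM keeps no depth, so reads per library are unknown and no counting interval is given. Between 13738 and 14434 genes were above 0 in a library, and libraries of a clone correlated at 0.992 to 0.997. The study's own test, DESeq2 1.8.1, used counts that were not analysed here.

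From these values, log2(TPM + 1) of the 11330 genes with a maximum TPM above 1 was fitted with limma 3.58.1 (trend, R 4.3.3), fitting the 9 libraries jointly, and p-values were adjusted after Benjamini and Hochberg (threshold 0.01). The fit was checked on data simulated with a spread fitted to the R7-I libraries and with 200 of 11330 genes changed in R7-II. It recovered 100% of the changed genes, with 1 false call. In the real data far more genes passed and the spread differed between clones, so the check gives no error rate for them. Strands of genes came from GENCODE. Folds of means are ratios of mean TPM.

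The ligands, gene lists, motifs and tests were chosen with earlier results of these data known. Named were all ligands and receptors, the 3 most abundant and the 2 most changed genes (in each comparison of R7-II) of the adaptor and processing lists, genes within 25 kb of a ligand, the 5 genes most like Tnfsf11, and the leading or lowest markers. 1 marker, Adgre1, was found under its older symbol. Alternatives were other pseudocounts, filters, scalings, moderation and threshold, fits of the clones compared only, a replicate block and leaving out each library.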

Additional observations from a re-analysis of the deposited data

How the results depend on the processing

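The counts of ligands, receptors, adaptors and processing genes passing in both comparisons of R7-II stayed within 1.5 times of the values given under every alternative run. Tnfsf11, Ltb, Fasl, Cd70 and Tnfsf14 passed in both, and Tnf and Tnfsf8 against R7-I, under every alternative in which they were tested (Cd70 left the test when every library had to reach 1 TPM). The number of ligands was 7 to 8 of 10 against R7-I and 5 to 7 against R7-III with each library left out in turn. Over the tested ligands and receptors, 1174 single results kept their direction and side of the threshold, 27 lost the call, 28 gained one and 22 changed sign. TPM keeps no depth, so what the read number limits is unknown.

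Between R7-III and R7-I the counts were small and unstable, and the cause was not tested. The 1 ligand passing there became 0 without the filter on low values, with quantile normalization or without the trend, 4 at an adjusted p of 0.05 and 2 with only the clones compared. It lay between 0 and 1 with libraries left out, being 0 without R7-I replicate 1, 2 or 3, R7-II replicate 1 or R7-III replicate 1 or 2. Receptors went from 0 to 2 at an adjusted p of 0.05, to 1 with only the clones compared or every library at 1 TPM or more, and to 0 to 1 with libraries left out (1 without R7-I replicate 3, R7-II replicate 2 or R7-III replicate 2). Adaptors went from 3 to 1 without the trend and lay between 0 and 4 with libraries left out (0 without R7-I replicate 1 or R7-III replicate 1, and 1 without R7-I replicate 2 or 3 or R7-III replicate 2 or 3). Processing genes went from 0 to 2 with median-of-ratios scaling, to 1 with quantile normalization and to 1 at an adjusted p of 0.05.

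The other ligands numbered 0 in place of 1 for R7-II against R7-I with quantile normalization (Tnfsf4, adjusted p = 0.0236). Against R7-III they numbered 2 in place of 1 at an adjusted p of 0.05 and 1 to 2 with libraries left out (2 without R7-I replicate 2 or R7-II replicate 3). For R7-III against R7-I they numbered 1 in place of 0 at an adjusted p of 0.05 and with only the clones compared, and 0 to 1 with libraries left out (1 without R7-II replicate 1).

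Among ligands and receptors, signs changed only for differences that had not passed. Most were near 0, and the largest log2 fold change was -0.16 (Tnfsf9, R7-III against R7-I). For R7-III against R7-I, Tnfsf14 became -0.044 with median-of-ratios scaling and -0.016 with quantile normalization. Tnfrsf1a became -5.02e-04 and -0.034 with these scalings, and Cd27 0.0072 with quantile normalization. With libraries left out, the range there was -0.045 to 0.16 for Ltb, -0.31 to 0.023 for Tnfsf9, -0.041 to 0.078 for Tnfsf14, -0.0305 to 0.10 for Tnfrsf1a, -0.070 to 0.18 for Tnfrsf14, -0.12 to 0.023 for Tnfrsf22, -0.11 to 0.053 for Tnfrsf23 and -0.019 to 0.016 for Cd27. For R7-II against R7-I it was -0.12 to 0.022 for Tnfsf10.

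Same-numbered libraries of different clones did not deviate together over the genes tested (correlations of deviations from the clone means between -0.04 and 0.09). Whether same-numbered libraries were handled together cannot be read from this, since a shared effect on few genes would leave these correlations low. The labels only number the replicates. With the replicate number as a block, 8, 7 and 2 ligands passed in R7-II against R7-I, R7-II against R7-III and R7-III against R7-I, Lta being added in the last (adjusted p = 0.00708), and 1 receptor passed there in place of 0 (Tnfrsf9, adjusted p = 0.00196).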
